A study of Mus musculus with 8 samples.

Results

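Chemokines are small secreted proteins that bind G protein-coupled receptors on leukocytes and other cells and guide their movement. They are named by the spacing of their first pair of conserved cysteines, which stand side by side in the CC family and have another residue between them in the CXC family. In the heart, Cxcl12 is made by stromal and endothelial cells in the steady state, Ccl2 and Ccl7 draw Ccr2-positive monocytes from the blood, and resident macrophages are a known source of several CC chemokines. The 10 chemokine genes described here are Ccl2, Ccl6, Ccl7, Ccl8, Ccl9, Ccl11, Cxcl1, Cxcl12, Cxcl14 and Cxcl16. They are 10 of the 18137 genes obtained when the FPKM (fragments per kilobase of transcript scaled to sequencing depth) of every named transcript was summed per gene. They were chosen by name from the chemokine family, and a transcript was assigned to them by its Ensembl identifier in GENCODE M21 (GRCm38, also called mm10).

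RNA was sequenced from mouse hearts of the WT genotype, 4 from sedentary mice and 4 from mice that had been swimming, in a study of cardiac transcripts in aging animals after swim training. Total RNA was depleted of ribosomal RNA with RNase H and reverse transcribed from random hexamers. The labels call the 4 samples of a group biological replicates and give no strain, sex, age, training schedule or number of mice per sample. If a sample is not 1 mouse, p-values cover only the spread between these samples.

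All 10 genes were above 0 in all 8 libraries and passed the filter of a mean of 0.5 FPKM, so none was set aside. Together they summed to between 71.7 and 112.9 FPKM per library. This was 55.1 to 70.5% of the summed FPKM of all 37 chemokine entries in the table. FPKM is scaled by transcript length, so levels can be set side by side between genes.

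The cysteine codons that separate the families were read from the GENCODE M21 coding sequences and are shown to identify each gene. Each line gives 30 coding bases on the gene's own strand, with the conserved cysteine codons in capitals.
Ccl2: ccactcaccTGCTGCtactcattcaccagc
Ccl7: gcatccacaTGCTGCtatgtcaagaaacaa
Ccl8: ccagtcaccTGCTGCtttcatgtactaaag
Ccl11: ccaacttccTGCTGCtttatcatgaccagt
Ccl6: tcttcagacTGCTGCttctcttatgccaca
Ccl9: tcttcagatTGCTGCctgtcctataactca
Cxcl1: gagctgcgcTGTcagTGCctgcagaccatg
Cxcl12: agctaccgaTGCcccTGCcggttcttcgag
Cxcl14: gggtccaagTGTaagTGTtcccggaagggg
Cxcl16: gctggaagtTGTtctTGTgatcgtaccatt
In the 6 CC genes the capitals are adjacent, and in the 4 CXC genes 1 codon lies between them. The first 9 bases of the Cxcl1 line encode the glutamate, leucine and arginine that mark CXC chemokines acting on neutrophils. Ccl6 and Ccl9 both begin with the bases tcttcaga, and no member's transcript shared a stretch of 31 bases with another member's.

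The CC genes all lie on chromosome 11. Ccl2 (82035571 to 82037453), Ccl7 (82045712 to 82047525), Ccl11 (82057823 to 82062955) and Ccl8 (82115185 to 82116799) follow each other on the plus strand within 81.2 kb, with Ccl12 between Ccl11 and Ccl8. Ccl9 (83572919 to 83578636) and Ccl6 (83587882 to 83593087) lie on the minus strand, 1456 kb further on. Cxcl16 is also on chromosome 11 (70453983 to 70459984, minus strand). The other members are single genes elsewhere, Cxcl1 on chromosome 5 (90891241 to 90893115, plus strand), Cxcl12 on chromosome 6 (117168535 to 117181367, plus strand) and Cxcl14 on chromosome 13 (56288643 to 56296551, minus strand).

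The libraries as wholes differed in ways that bear on the values below. FPKM summed to between 210413 and 235461 per library, and the number of reads is unknown. In swimming replicates 2 and 3 the mitochondrial transcript mt-Co1 stood at 12597 and 20079 FPKM against 28522 to 32015 in the other 6 libraries. There the 13 mitochondrial genes took 13.4% and 16.7% of the total against 18.3 to 20.8%. All 4 swimming libraries lay below all sedentary ones in mt-Co1 (12597 to 28904 against 30804.5 to 32015 FPKM), as for 1.58% of genes tested. The mitochondrial share was also lower in every swimming library (13.4 to 18.5% against 19.1 to 20.8%). Sedentary replicate 4 held RNA of liver and fat genes, with Alb (serum albumin) at 23.2 FPKM against at most 0.0865 elsewhere, and Cfd (adipsin) at 12.0 against at most 0.668. Sedentary replicate 3 was highest for the early-response gene Fos, at 10.1 FPKM against 0.309 to 1.22. Of 11674 genes tested across the whole table with limma, 2 (0.0171%) passed an adjusted p below 0.05, both higher in swimming hearts.

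None of the 10 chemokine genes passed that threshold, against the background of 0.0171%. The log2 fold change, swimming minus sedentary and on the log2(FPKM + 0.5) scale, was positive for 5 genes and negative for 5, with a median of −0.06. Over all genes tested the median was 0.03, and 58.7% of genes were positive. In none of the 10 did the groups separate, whereas 4.82% of all genes tested had no overlap between sedentary and swimming libraries. At an unadjusted p below 0.05, 1 gene was higher (Ccl8, background 4.93%) and 2 were lower (Ccl2 and Ccl7, background 2.43%). In whole hearts, fewer cells of a type and less RNA per cell cannot be told apart.

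**Figure D1:**
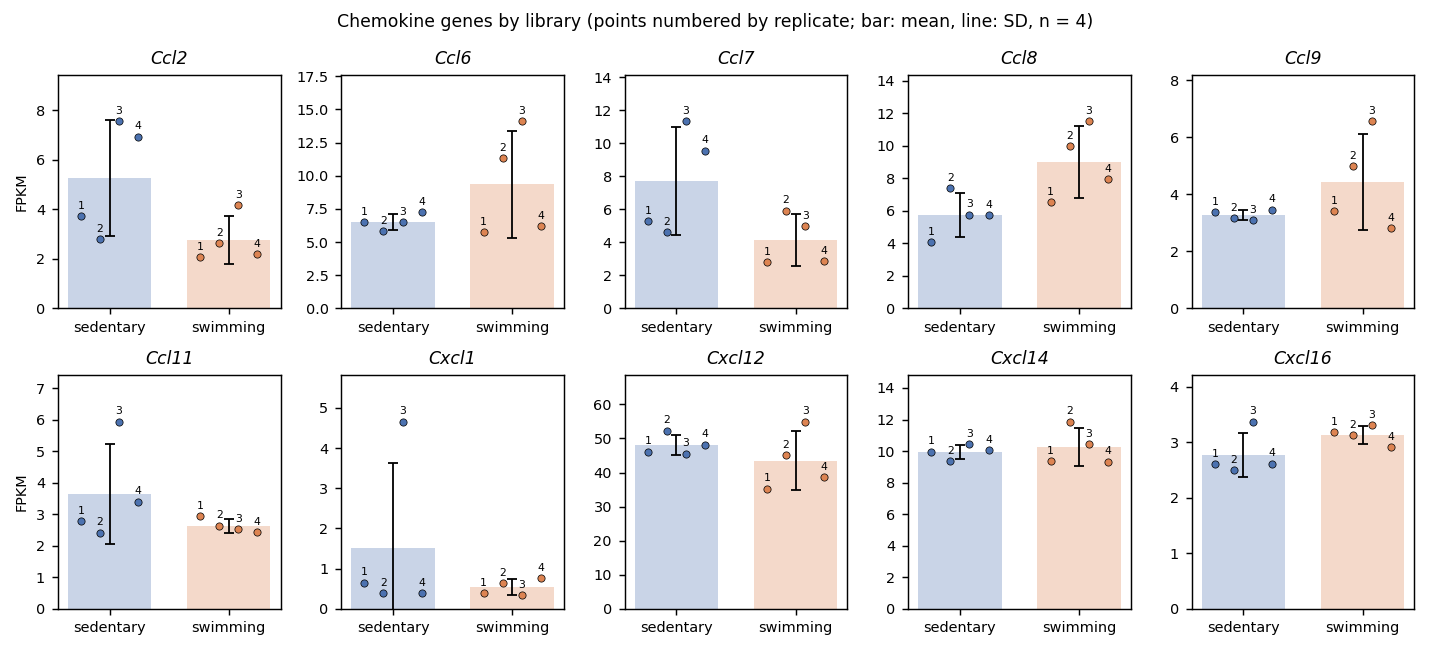
FPKM of each chemokine gene (y axis, from 0) in sedentary and swimming hearts (x axis). Points are libraries numbered by replicate, bars are means and lines are the SD (n = 4); for Cxcl1 in sedentary hearts the SD reaches below 0 and the line is cut at the axis. Sedentary replicates 3 and 4 lead Ccl2 and Ccl7, swimming replicates 2 and 3 lead Ccl6, Ccl8 and Ccl9, and sedentary replicate 3 alone leads Cxcl1.

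Among the 10 members, Cxcl12 led by level with 45.8 ± 6.499 FPKM over the 8 libraries (SD), followed by Cxcl14 at 10.1 ± 0.848. These are the only neighbours in the order whose ranges did not overlap. Ccl6 (7.94 ± 3.07), Ccl8 (7.37 ± 2.42), Ccl7 (5.92 ± 3.04), Ccl2 (4.01 ± 2.13), Ccl9 (3.86 ± 1.27), Ccl11 (3.14 ± 1.18), Cxcl16 (2.95 ± 0.343) and Cxcl1 (1.03 ± 1.47) came next, each overlapping its neighbour. Ccl7 was nevertheless above Ccl2 in 8 of 8 libraries, and Ccl11 above Cxcl16 in only 3 of 8. The spread between libraries ordered the genes differently: the coefficient of variation was 8.39% for Cxcl14, 11.6% for Cxcl16 and 14.2% for Cxcl12, between 32.9 and 53.0% for the CC genes, and 143.2% for Cxcl1.

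Ccl2 and Ccl7 both signal through Ccr2 and recruit monocytes. Ccl2 measured 3.73, 2.82, 7.56 and 6.94 FPKM in sedentary replicates 1 to 4, and 2.06, 2.64, 4.16 and 2.19 in swimming replicates 1 to 4. Sedentary replicates 3 and 4 stood above every other library, while sedentary replicates 1 and 2 lay within the swimming range. The means were 5.26 ± 2.34 and 2.76 ± 0.964 FPKM (SD, n = 4 each), a log2 fold change of −0.77 (SE 0.326, 95% interval −1.52 to −0.00996, limma adjusted p = 0.671).

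Ccl7 measured 5.30, 4.64, 11.3 and 9.56 FPKM in sedentary and 2.79, 5.92, 4.98 and 2.87 in swimming hearts. The same sedentary libraries were highest, and sedentary replicate 2 lay below swimming replicates 2 and 3. Its log2 fold change was −0.80 (SE 0.338, adjusted p = 0.671), from 7.71 ± 3.25 to 4.14 ± 1.56 FPKM (n = 4 each). The Ccl7 to Ccl2 ratio stayed between 1.20 and 2.24 in the 8 libraries (1.51 ± 0.325). Without swimming replicates 2 and 3 the fold changes were −1.04 for Ccl2 and −1.21 for Ccl7, and without sedentary replicate 4, the library with liver and fat RNA, they were −0.61 and −0.67. Leaving out sedentary replicate 3, the highest library for both genes, gave −0.57 for Ccl2 and −0.59 for Ccl7.

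Ccl11 (eotaxin), which attracts eosinophils through Ccr3, lies next to Ccl7 on the chromosome. It measured 2.77, 2.42, 5.95 and 3.41 FPKM in sedentary and 2.94, 2.64, 2.53 and 2.43 in swimming hearts. Sedentary replicate 3 stood above all other libraries and the remaining 7 overlapped. The means were 3.64 ± 1.59 and 2.63 ± 0.218 FPKM, a log2 fold change of −0.33 (SE 0.231, adjusted p = 0.767) that became −0.0947 without sedentary replicate 3.

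Ccl8, which in the mouse acts on Ccr8, measured 4.08, 7.38, 5.77 and 5.71 FPKM in sedentary and 6.55, 9.99, 11.5 and 7.96 in swimming hearts. In Ccl8, 3 swimming libraries exceeded every sedentary one, and swimming replicate 1 lay below sedentary replicate 2. The means were 5.74 ± 1.35 and 8.998 ± 2.18 FPKM, a log2 fold change of 0.60 (SE 0.209, 95% interval 0.12 to 1.09, adjusted p = 0.642). Leaving out swimming replicates 2 and 3 together brought it to 0.33. Summed macrophage markers were also higher in all 4 swimming libraries (222.1 to 247.3 FPKM against 183.4 to 196.0). Lyz2 alone gave 88.0 to 121.1 FPKM of that sum. Of the 14 markers, 4 were higher in every swimming library (Lyz2, C1qa, C1qb and Mrc1) and the others overlapped, against 3.24% of all genes tested. The part of macrophages in Ccl8 was not tested. Read along the chromosome, the log2 fold changes of this cluster were −0.77 for Ccl2, −0.80 for Ccl7, −0.33 for Ccl11, 0.15 for Ccl12 and 0.60 for Ccl8, none of which passed the adjusted threshold.

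Ccl6 and Ccl9 are ligands of Ccr1 found in rodents. Ccl6 measured 6.49, 5.84, 6.49 and 7.26 FPKM in sedentary and 5.77, 11.3, 14.1 and 6.23 in swimming hearts. Swimming replicates 2 and 3 stood above all others, and swimming replicates 1 and 4 lay within or just below the sedentary range. The log2 fold change was 0.40 (SE 0.272, adjusted p = 0.764), 0.18 without swimming replicate 3 and −0.11 without both of those libraries.

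Ccl9 had the same shape, at 3.38, 3.17, 3.10 and 3.47 FPKM in sedentary and 3.40, 4.98, 6.56 and 2.82 in swimming hearts. Sedentary libraries differed little (3.28 ± 0.173, n = 4), while the swimming libraries ranged from below to well above them (4.44 ± 1.68). The log2 fold change was 0.33 (SE 0.222, adjusted p = 0.764). It was 0.13 without swimming replicate 3, 0.50 without swimming replicate 4 and −0.07 without swimming replicates 2 and 3. The Ccl6 to Ccl9 ratio lay between 1.69 and 2.27 (2.03 ± 0.197).

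**Figure D2:**
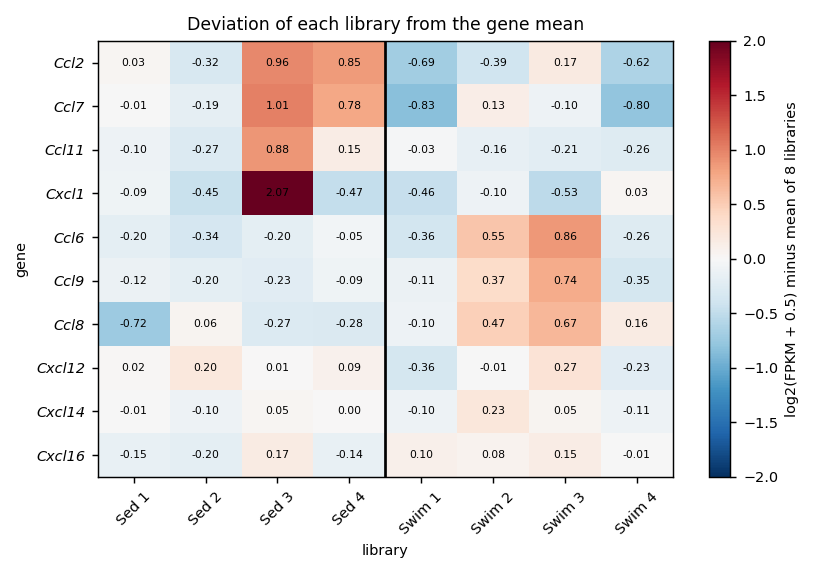
Each cell gives log2(FPKM + 0.5) of a chemokine gene (rows) in a library (columns) minus that gene's mean over the 8 libraries, with red above and blue below. The black line separates sedentary from swimming libraries. Sedentary replicates 3 and 4 are red for Ccl2 and Ccl7, sedentary replicate 3 also for Ccl11 and Cxcl1, and swimming replicates 2 and 3 for Ccl6, Ccl9 and Ccl8.

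The libraries that led were therefore shared between genes within a group. Swimming replicates 2 and 3 were the highest pair of the 8 libraries for Ccl6, Ccl8, Ccl9 and Cxcl14, 4 of 10 genes, where 5% of all genes tested had that pair highest. For Cxcl14 this rank was a near tie, with swimming replicate 3 at 10.433 FPKM and sedentary replicate 3 at 10.421. In swimming replicate 2 the Cxcl14 sum of 11.9 FPKM was mostly the shorter transcript Cxcl14-202 (9.53 FPKM), and the effect of that division was not tested. Sedentary replicates 3 and 4 were the highest pair for Ccl2, Ccl7 and Ccl11, 3 of 10 genes, against 4.45% of all genes. Sedentary replicate 3 alone was highest for 5 of 10 genes, against 12.7%. These patterns were noticed in the values themselves and are given without a test. The libraries lowest in mt-Co1 are the same swimming replicates 2 and 3. They also had Socs3, a target of cytokine signalling, at 4.41 and 6.53 FPKM against 1.57 to 3.03 elsewhere. Myl4, a myosin light chain used as an atrial marker, stood there at 6.96 and 5.13 FPKM against 0.101 to 0.489. The other atrial markers did not all follow: Sln was also highest there (1.55 and 0.769 FPKM against 0.0237 to 0.556), Nppa lay inside the range of the other libraries, and Myl7 was at most 0.00401 FPKM in all 8. The 6 lymphatic endothelial markers, none of them at 0 in every library, summed to 16.8 and 17.3 FPKM in swimming replicates 2 and 3 against 10.4 to 13.1 in the other 6, with the defining marker Prox1 at 0.0203 to 0.0726 in all 8 and Lyve1, which some macrophages also carry, at 6.57 and 7.76 against 3.64 to 4.78. Sedentary replicate 3 had the highest Il1b (1.87 FPKM against 0.139 to 0.709) and Il6 (0.450 against 0.0126 to 0.178) beside its high Fos. The companions named here were picked with their values in view, and their part in the chemokine values was not tested.

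Cxcl1 attracts neutrophils through Cxcr2. It measured 0.651, 0.397, 4.66 and 0.385 FPKM in sedentary and 0.395, 0.643, 0.349 and 0.757 in swimming hearts. Sedentary replicate 3 stood far above the other 7 libraries, among which the groups overlapped. The means were 1.52 ± 2.09 and 0.536 ± 0.196 FPKM, a log2 fold change of −0.53 (SE 0.550, adjusted p = 0.840) that became 0.07 without sedentary replicate 3.

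Cxcl12 holds leukocytes and progenitors in tissues through Cxcr4. It measured 46.2, 52.3, 45.6 and 48.2 FPKM in sedentary and 35.3, 45.2, 54.95 and 38.6 in swimming hearts. The swimming values spread on both sides of the sedentary ones, with replicates 1, 2 and 4 below and replicate 3 above them all. The sum in swimming replicate 3 included 11.005 FPKM of Cxcl12-202, a transcript of 1878 bases against 5627 for Cxcl12-201. A fragment adds more FPKM when assigned to the shorter transcript, so this sum need not mean more Cxcl12 RNA. The means were 48.1 ± 3.05 and 43.5 ± 8.68 FPKM, a log2 fold change of −0.16 (SE 0.132, adjusted p = 0.797). It was −0.0681 without swimming replicate 1, −0.28 without swimming replicate 3 and −0.38 without swimming replicates 2 and 3, and none of these passed the adjusted threshold (lowest adjusted p over all alternatives 0.399).

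Cxcl14, which is produced by epithelial and stromal cells, was the most even of the 10. It measured 9.97, 9.35, 10.4 and 10.1 FPKM in sedentary and 9.38, 11.9, 10.4 and 9.33 in swimming hearts. The groups overlapped, with a log2 fold change of 0.04 and a 95% interval of −0.16 to 0.23 (adjusted p = 0.936).

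Cxcl16 is made as a membrane protein that is shed by Adam10 and Adam17 and binds Cxcr6. It measured 2.60, 2.502, 3.37 and 2.61 FPKM in sedentary and 3.18, 3.13, 3.31 and 2.92 in swimming hearts. All 4 swimming libraries lay above 3 sedentary ones and below sedentary replicate 3. The means were 2.77 ± 0.401 and 3.13 ± 0.163 FPKM, a log2 fold change of 0.16 (SE 0.0951, adjusted p = 0.737) that was 0.24 without sedentary replicate 3. Its first exon overlaps Zmynd15 on the opposite strand by 552 bases, 19.6% of the 31-base stretches of Cxcl16-201 also occur in Zmynd15 transcripts, and the sources used here do not state whether the counting used strand. Zmynd15 itself stood at 0.166 to 0.841 FPKM.

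**Figure D3:**
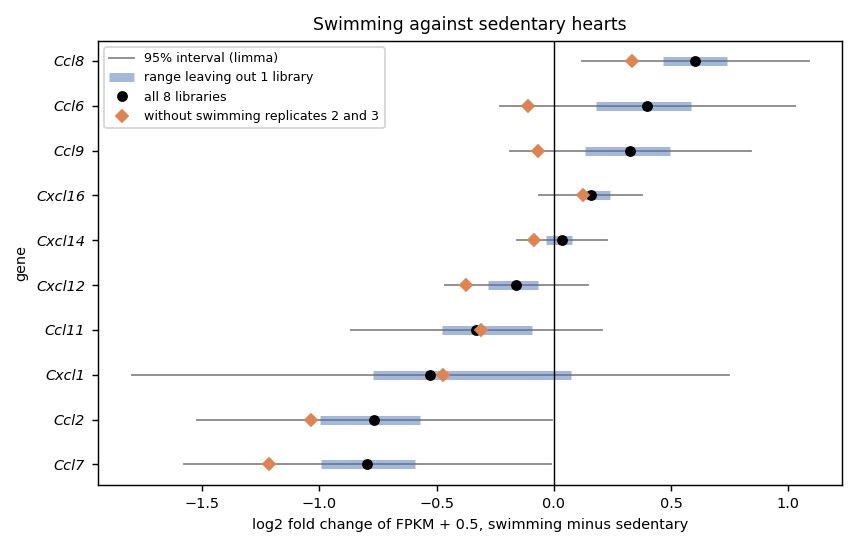
Log2 fold change of FPKM + 0.5, swimming minus sedentary (x axis), for each chemokine gene (y axis). Black points use all 8 libraries, grey lines are 95% intervals from limma, blue bands are the range when 1 library is left out, and orange diamonds leave out swimming replicates 2 and 3. Without those libraries Ccl6, Ccl9 and Cxcl14 lie below 0, and Ccl2 and Ccl7 lie further below it than with all 8.

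Promoters were read for the 6 members present in the RefSeq table of GRCm38.p6 (Ccl6, Ccl8, Ccl9, Cxcl1, Cxcl12 and Cxcl14). Shown are the 250 bases before the start of Cxcl1, the gene with the widest spread, and of Ccl6, Ccl9 and Ccl8, which shared their highest libraries. Cxcl14, which had the same highest pair, is described below but not shown. Capitals mark matches on either strand to TATAAA, to an NF-kB motif of 10 bases (GGG, then any 2 bases, then TTTCC), or to TGANTCA (an AP-1 motif), each sequence running 5′ to 3′ on the gene's strand.
Cxcl1, chr5:90890995-90891244, plus strand: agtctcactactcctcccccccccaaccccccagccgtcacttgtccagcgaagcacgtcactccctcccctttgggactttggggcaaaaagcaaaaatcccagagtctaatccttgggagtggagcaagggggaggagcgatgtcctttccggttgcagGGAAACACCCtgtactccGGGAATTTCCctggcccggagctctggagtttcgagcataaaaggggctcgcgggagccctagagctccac
Ccl6, chr11:83593088-83593337, minus strand: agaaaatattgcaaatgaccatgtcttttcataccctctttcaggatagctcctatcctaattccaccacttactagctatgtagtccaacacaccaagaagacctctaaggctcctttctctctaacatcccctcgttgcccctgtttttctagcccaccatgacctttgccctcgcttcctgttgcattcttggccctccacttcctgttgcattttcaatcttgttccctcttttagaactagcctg
Ccl9, chr11:83578637-83578886, minus strand: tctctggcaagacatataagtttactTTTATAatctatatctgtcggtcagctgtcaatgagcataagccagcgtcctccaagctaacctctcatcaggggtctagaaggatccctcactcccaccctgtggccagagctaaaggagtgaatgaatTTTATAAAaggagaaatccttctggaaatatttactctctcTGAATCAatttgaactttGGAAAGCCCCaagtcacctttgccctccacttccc
Ccl8, chr11:82114935-82115184, plus strand: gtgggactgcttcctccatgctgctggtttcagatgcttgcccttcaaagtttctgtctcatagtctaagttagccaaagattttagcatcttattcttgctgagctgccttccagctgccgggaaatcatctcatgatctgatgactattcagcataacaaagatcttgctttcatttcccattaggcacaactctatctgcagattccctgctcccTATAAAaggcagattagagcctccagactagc
The Cxcl1 promoter held GGGAATTTCC from 71 to 62 bases before the start and GGAAACACCC, a match on the opposite strand, from 89 to 80 bases before it. The Ccl9 promoter held an opposite-strand match, GGAAAGCCCC, from 35 to 26 bases before the start, the AP-1 letters from 53 to 47, and the TATA letters from 92 to 87 bases before the start. That TATA match overlapped another on the opposite strand from 94 to 89, and a further opposite-strand match lay from 224 to 219. In the Ccl8 promoter the TATA letters lay from 32 to 27 bases before the start. In Ccl6 and in Cxcl14 none of these motifs was found in the window. Of 32851 promoters of the same length, 1.41% held the NF-kB letters, 6.75% the AP-1 letters and 12.4% the TATA letters. GGGCGG (a GC box) was found 5 times in the Cxcl12 promoter, 4 of them on the opposite strand and 2 of those overlapping by 1 base, and in 32.7% of promoters overall. A match is a description of the letters and not a site of binding.

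Cxcl12, Cxcl14 and Cxcl16 had more than 1 transcript in the table, and for Cxcl14 the split between transcripts varied more than the gene sum. Cxcl12-201 encodes 119 codons, the gamma form with a long basic tail that binds heparan sulfate, and was assigned 78.9 to 99.2% of the gene's FPKM. The last exon of Cxcl12-203 (117178583 to 117181366) lies within that of Cxcl12-201 (117176086 to 117181367), and their middle exons are the same. These shares therefore depend, in every library, on how fragments were divided between transcripts. Cxcl12-201 measured 45.8, 51.6, 45.2 and 47.2 FPKM in sedentary and 34.6, 44.4, 43.4 and 37.4 in swimming hearts. Every swimming value lay under every sedentary value, as was the case for 1.4% of the 22614 transcripts tested. In swimming replicate 3 this order depends on that division in particular. There Cxcl12-202, whose exons overlap those of Cxcl12-201, took 11.005 FPKM, and the Cxcl12 sum lay above every sedentary sum. The effect of that division was not tested. The log2 fold change was −0.25 (SE 0.0926, unadjusted p = 0.0284; −0.39 without swimming replicates 2 and 3), and the limma adjusted p over all transcripts was 0.869.

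Cxcl12-202, the alpha form of 89 codons, stood at 0.0152 to 0.0728 FPKM in 7 libraries and at 11.005 in swimming replicate 3, where it was 20.0% of the gene. That library's high Cxcl12 sum thus included this transcript, and its Cxcl12-201 value lay within the range of the other swimming libraries. Cxcl12-203, the beta form of 93 codons, stood at 0.342 to 1.21 FPKM. Cxcl12-202 ends in its own last exon (117173492 to 117175069), whereas the other transcripts continue to an exon further downstream (from 117176086 in Cxcl12-201 and 117178583 in Cxcl12-203).

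Cxcl14 showed an exchange between transcripts at an even sum. Cxcl14-201, with 99 codons, stood at 8.73 to 10.4 FPKM in 6 libraries but at 1.87 in sedentary replicate 1 and 2.34 in swimming replicate 2. Cxcl14-202, with 61 codons, stood at 8.10 and 9.53 FPKM in those 2 libraries, 81.3% and 80.3% of the gene, and at 0 to 1.02 in the others. The libraries concerned are 1 of each group, and the log2 fold change of Cxcl14-201 was near 0 (0.00497, adjusted p = 0.9999). In the annotation Cxcl14-202 lacks the third exon of Cxcl14-201 (56292461 to 56292574, 114 bases or 38 codons) and has a shorter first exon (to 56296305 and not 56296551), and the cysteine codons shown above lie in the exons that both contain.

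Cxcl16-201 measured 1.88 to 3.01 FPKM in sedentary and 2.32 to 2.77 in swimming hearts. Cxcl16-202, annotated as subject to nonsense-mediated decay, stood at 0.356 to 0.906 FPKM. No transcript of these genes passed the adjusted threshold, where 12 of 22614 transcripts (0.0531%) did; at an unadjusted p below 0.05 the share of all transcripts was 5.51%. The remaining 7 members had 1 transcript each in the table.

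**Figure D4:**
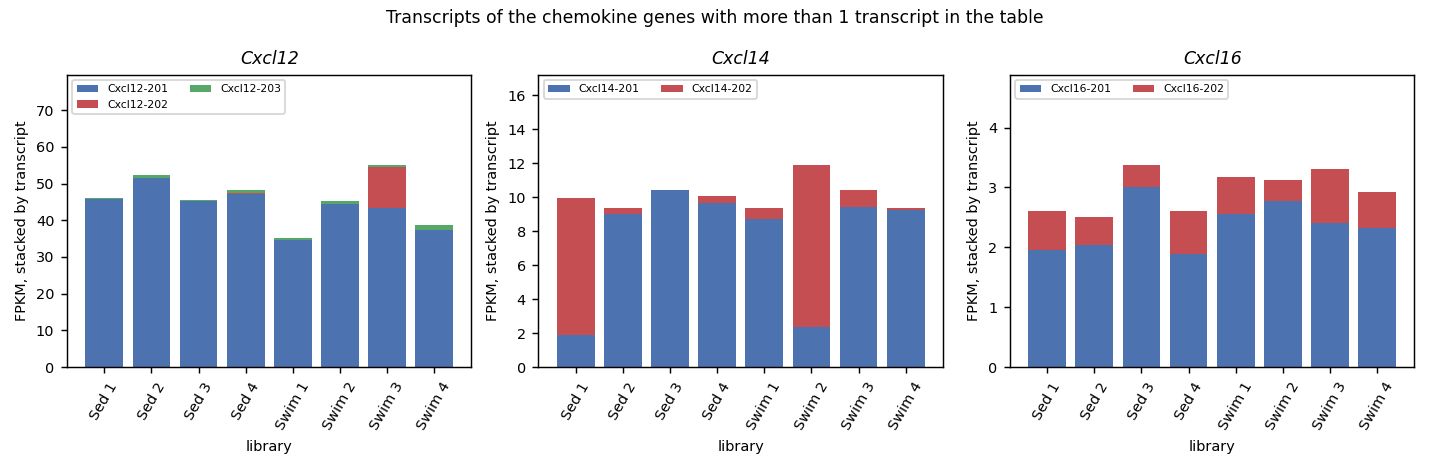
FPKM of the annotated transcripts (stacked bars, y axis from 0) of Cxcl12, Cxcl14 and Cxcl16 in each library (x axis). Cxcl12-202 is visible only in swimming replicate 3, at 11.005 FPKM, and Cxcl14-202 makes up most of the bar in sedentary replicate 1 and swimming replicate 2.

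All 24 chemokine receptor genes listed were in the table, and 9 passed the filter. Of these, 4 were higher and 5 lower in swimming hearts in their means on the log scale, with a median log2 fold change of −0.04, and none passed the adjusted threshold. Ccr1, the receptor of Ccl6 and Ccl9, measured 0.750, 0.636, 0.350 and 0.645 FPKM in sedentary and 0.821, 1.10, 1.62 and 0.951 in swimming hearts. Every swimming value exceeded every sedentary value, as for 3.24% of all genes tested, and the log2 fold change was 0.56 (adjusted p = 0.608). Swimming replicates 2 and 3 were the highest here too, and without them it was 0.35.

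Ccr2, the receptor of Ccl2 and Ccl7, measured 1.64, 1.496, 1.42 and 0.490 FPKM in sedentary and 1.68, 2.32, 2.02 and 1.67 in swimming hearts. Every swimming value exceeded every sedentary value, as for 3.24% of all genes tested, although the highest sedentary (1.64 FPKM) and lowest swimming (1.67 FPKM) values nearly met. The log2 fold change of 0.51 had an adjusted p of 0.694. It was 0.26 without sedentary replicate 4, the library with liver and fat RNA. Its lowest library, sedentary replicate 4, was among the highest for Ccl2 and Ccl7.

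The Cxcl12 receptor Cxcr4 stood at 4.13 ± 1.58 and 3.29 ± 0.330 FPKM (adjusted p = 0.826), and its log2 fold change of −0.23 was −0.0415 without sedentary replicate 1. Ackr3, which binds and clears Cxcl12, was the most abundant receptor at 18.5 ± 3.23 and 16.5 ± 2.96 FPKM (adjusted p = 0.823), and Cxcr6 stood at 0.527 ± 0.0573 and 0.4998 ± 0.0600. In both groups the order Ackr3 above Cxcr4 above Cxcr6 held in the means.

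Several receptors matched to members lay below the filter and were not tested. Ackr2, a scavenger of CC chemokines, stood at 0.549 ± 0.154 FPKM in sedentary and 0.354 ± 0.198 in swimming hearts, Ackr1 at 0.104 and 0.138, and the Cxcl1 receptor Cxcr2 at 0.0914 and 0.142. Ccr3, the receptor of Ccl11, was above 0 in 2 libraries, and Ccr8, that of mouse Ccl8, in 1. Ccl11 and Ccl8 were present at several FPKM in the same hearts. Among the remaining receptors, Ackr4 stood at 0.738 ± 0.384 and 0.983 ± 0.207 FPKM and Ccrl2 at 4.28 ± 0.623 and 3.76 ± 0.838.

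**Figure D5:**
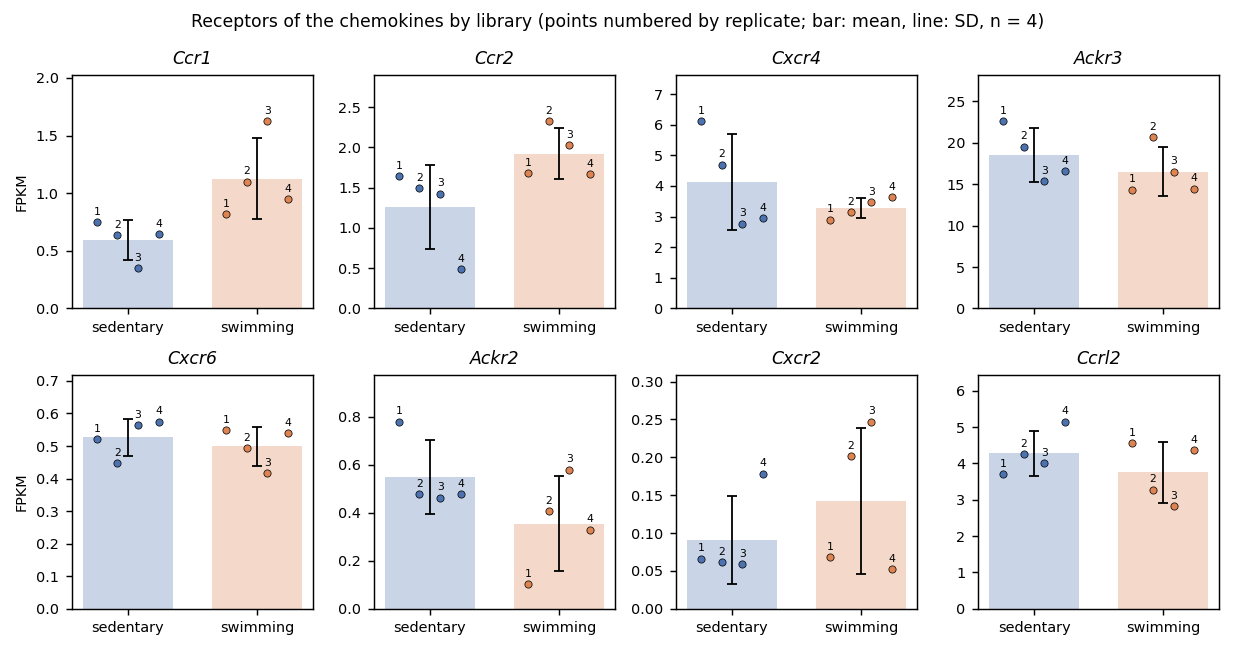
FPKM (y axis, from 0) of 8 chemokine receptor genes in sedentary and swimming hearts (x axis), with points numbered by replicate, bars as means and lines as SD (n = 4). Ccr1 and Ccr2 show no overlap between groups, with every swimming value higher as for 3.24% of all genes tested, and the other receptors overlap.

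Of the 29 other chemokine symbols listed, 24 were in the table, as 27 gene entries. In 13 that passed the filter, 12 log2 fold changes were positive and 1 negative, with a median of 0.19, against 58.7% positive and a median of 0.03 over all genes. These 13 entries include more than 1 copy each of Ccl21a and Ccl21b, all positive, so they do not count as 13 separate genes. None passed the adjusted threshold. An unadjusted p below 0.05 was reached by a pair of Ccl21b entries (ENSMUSG00000096271, 0.586 and 1.12 FPKM in sedentary and swimming; ENSMUSG00000096873, 0.540 and 1.254), whose near-identical copies make the assignment of fragments uncertain. Ccl27a stood at 1.41 and 1.67 FPKM and Cxcl13 at 0.4997 and 0.658. The most abundant of these other chemokines were Ppbp (17.8 ± 7.04 FPKM over the 8 libraries) and Pf4 (15.0 ± 1.80). Both means lay above those of every member except Cxcl12.

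The 14 genes for cleavage and anchoring of chemokines (proteases, syndecans and heparan sulfate enzymes) gave 13 tested, with 8 positive and 5 negative log2 fold changes, a median of 0.04 and no call. Those with the smallest p were Sdc3 (11.6 ± 0.743 and 13.0 ± 0.847 FPKM), Mmp2, which cleaves Cxcl12 and Ccl7 (10.2 ± 4.02 and 13.7 ± 1.55), Mmp14 (6.17 and 7.06) and Sdc2 (12.1 and 12.5). Of 24 NF-kB and inflammatory signal genes, 20 were tested, with 10 positive and 10 negative, a median of 0.02 and no call. Within that list Relb, an NF-kB subunit, was split inside both groups, at 3.18, 2.77, 3.80 and 0.0425 FPKM in sedentary and 0.120, 0.144, 0.123 and 1.34 in swimming hearts (log2 fold change −1.48, adjusted p = 0.684). Tnfrsf1a (17.3 and 19.4 FPKM), Tnfrsf1b (4.02 and 4.37) and Vcam1 (8.51 and 9.32) were the other genes of that list with the smallest p.

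Markers of the cells known to make or answer these chemokines were read beside them. The 14 macrophage markers, all in the table and none at 0, summed to 183.4 to 196.0 FPKM in sedentary and 222.1 to 247.3 in swimming hearts, and 12 of 14 had a positive log2 fold change (median 0.17) with none called. Every swimming library was higher for 4 of them (Lyz2, C1qa, C1qb and Mrc1), against 3.24% of all genes tested, and the rest overlapped. Lyz2 (92.2 ± 4.86 and 112.7 ± 6.27 FPKM), C1qa (19.2 ± 8.83 and 29.4 ± 2.48), C1qb (21.7 ± 1.23 and 26.8 ± 3.56) and C1qc (13.3 ± 2.01 and 14.5 ± 1.68) were the most abundant. The sedentary mean of C1qa was lowered by sedentary replicate 1, at 6.58 FPKM against 19.9 to 25.6 in the other sedentary libraries. The 5 monocyte markers summed to 3.19 to 5.84 and 5.45 to 6.84 FPKM. Fibroblast markers (523.0 to 569.7 and 542.5 to 595.7 FPKM) and endothelial markers (140.0 to 155.5 and 139.0 to 153.7) overlapped between groups. The neutrophil markers, the cells that Cxcl1 attracts, summed to 2.22 FPKM in sedentary replicate 3, inside the range of 0.539 to 6.14 over the 8 libraries. The part of these cell types in the chemokine values was not tested.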

How the data were processed

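The deposited table gives FPKM per transcript for 8 libraries, as computed by the authors; no column of per-sample values was left unused. The submitters' processing notes name HISAT2, Salmon 0.8.2, featureCounts 1.4.6-p5, Subread, STAR 2.5.1a and the mm10 build, and the sources used here do not say which of them made the FPKM. Of 51169 transcripts, 45676 were named through GENCODE M21 and summed to 18137 genes; 5427 assembled transcripts (11.3 to 12.5% of FPKM) and 66 unmatched ones were left out. Genes with a mean of at least 0.5 FPKM entered a limma 3.58.1 fit (R 4.3.3; trended variance, no block) of log2(FPKM + 0.5), with Benjamini-Hochberg adjustment over all 11674 genes; transcripts were fitted likewise. The fold change on this scale understates changes of low genes. The number of reads was not recoverable, so no count test was run. A rough relative depth, estimated from the smallest FPKM values of genes with 1 transcript, was 1.64 in swimming replicate 2 and 0.871 to 1.00 elsewhere. That library also had the most transcripts above 0, 43018 against 39942 to 41045. The script was tested on simulated data. The members, gene lists and named genes (all members, receptors matched to them, the smallest p of each other list, the most abundant markers) were chosen with earlier results of these data known. The values of 1 of the receptors are not reported here. Promoter and coding sequences came from RefSeq (GRCm38.p6) and GENCODE M21.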

Additional observations from a re-analysis of the deposited data

Results flagged for a closer look

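In 8 of 34 groups of 4 libraries examined, 1 library stood further from the others than Dixon's 95% critical value for the gap over the range allows. Chance alone flags about 1 group in 20, and the genes and their transcripts are not independent of each other. Sedentary replicate 3 stood apart for Cxcl1, at 4.66 FPKM against 0.385 to 0.651 in the other sedentary libraries, for Cxcl16, at 3.37 against 2.502 to 2.61, and for the transcript Cxcl16-201, at 3.01 against 1.88 to 2.04. Swimming replicate 3 stood apart for Cxcl12-202, at 11.005 FPKM against 0.0152 to 0.0445. Sedentary replicate 1 stood apart for Cxcl14-201, at 1.87 FPKM against 9.01 to 10.4, and for Cxcl14-202, at 8.10 against 0 to 0.435. Swimming replicate 2 did so for the same transcripts, at 2.34 FPKM against 8.73 to 9.41 for Cxcl14-201 and at 9.53 against 0.0963 to 1.02 for Cxcl14-202. The cause was not tested.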

How the results depend on the processing

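Under each of 19 alternatives, 0 of the 10 chemokine genes passed an adjusted p below 0.05, and 185 of 190 member fold changes kept their sign. The count over all genes, 2, became 1 with a pseudocount of 0.1, 1 with quantile normalization, 0 without both swimming replicates 2 and 3 (chosen after seeing the data), and 0 to 5 when 1 library was left out. The labels do not say whether samples with the same replicate number belong together. Their deviations correlated at −0.05 to 0.02, which does not exclude a pairing. With a replicate block 0 genes and 0 members were called. Without both swimming replicates 2 and 3 the log2 fold change reversed for Ccl6 (−0.11), Ccl9 (−0.0687), Cxcl14 (−0.0842), Cxcr6 (0.0259), Ccrl2 (0.0619), Tnfrsf1a (−0.013) and Cxcl14-202 (−0.71). Cxcl14-201 reversed to −0.00277 with a pseudocount of 1 and to −0.022 with median-of-ratios scaling. Leaving out 1 library gave ranges that crossed 0 for Cxcl1 (−0.77 to 0.075), Cxcl14 (−0.0343 to 0.076), Cxcr6 (−0.0762 to 0.00229), Cxcl14-201 (−0.52 to 0.45), Cxcl14-202 (−0.42 to 1.29) and Cxcl16-202 (−0.0285 to 0.21). It gave −0.998 to −0.57 for Ccl2, −0.99 to −0.59 for Ccl7 and 0.46 to 0.74 for Ccl8. The members with an unadjusted p below 0.05 fell in number from 3 to 1 without sedentary replicate 4, swimming replicate 1 or swimming replicate 2. No member lay below the filter, so the planned test of unfiltered differences was not needed. The cause of these reversals was not tested, and the number of reads behind each value is unknown.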
